A study of Mus musculus with 2 samples.

Results

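The genes described here encode the ATP-binding cassette (ABC) family, chosen as the protein-coding genes of the RefSeq annotation of GRCm38.p6 whose symbols run from Abca to Abcg with a number and at most 1 further letter. Abcb11, which matches this pattern, was left out by the rule. That gave 49 genes out of 21887 protein-coding genes on the standard chromosomes. Binding of the nuclear receptor Hnf4a at these genes was read from chromatin integration labelling (ChIL-seq), in which an antibody-linked probe guides Tn5 transposase and RNA is made in place from the tagged DNA. The samples were iHepCs, wild-type C57BL/6J mouse embryonic fibroblasts given retroviral Foxa2 and Hnf4a, so the factor mapped was itself introduced, and the culture medium held insulin, nicotinamide, dexamethasone and the growth factors for hepatocytes and epidermis (HGF and EGF). There was 1 group of 2 samples, named biological replicates in the series text, and the peak names place both in the same lot of cells. No cells without the introduced factors and no control libraries were analysed here.

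ABC proteins use the energy of ATP to move molecules across membranes, and in hepatocytes they are sorted by membrane. Canalicular pumps face the bile and export drugs, conjugates, phospholipid and sterols, while basolateral pumps face the blood and take part in efflux from the cell and in the assembly of high-density lipoprotein. Other members work in peroxisomes, mitochondria or lysosomes, and those of the Abce and Abcf subfamilies have no membrane-spanning part and transport nothing. Hnf4a binds DNA as a homodimer, typically at direct repeats of a short half-site, and maintains much of the hepatocyte programme.

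The deposited lists held 21283 summits of 1 bp in replicate 1 and 24097 in replicate 2, each with the authors' score, the −log10 of the peak's q-value. A shared site is a pair of summits, from both replicates, no more than 100 bp apart, and there were 9193 of them, whose scores had medians of 9.93 (replicate 1) and 9.61 (replicate 2). The lists do not give the read depth. The assay shows where summits lie and not whether a gene is expressed. Sites beside marker genes thus describe binding and cannot check the identity of the cells. Of 6 hepatocyte markers, 3 had a shared site within 10 kb of a gene end, namely Afp, Trf and Serpina1a, and Alb, Ttr and Apoa1 had none. None of 6 fibroblast markers had one, and of all protein-coding genes 20.6% did. Inside or within 50 kb, where 47.9% of all genes had a shared site, 5 hepatocyte markers (with 4 sites at Alb) and 2 fibroblast markers, Vim and Twist2, had one. In single replicates, summits lay within 10 kb of 5 hepatocyte markers in each replicate, and of 0 fibroblast markers in replicate 1 and 4 in replicate 2, beside 39.4% and 41.9% of all genes.

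Promoter sequences were at hand for 37 of the 49 genes, as 44 RefSeq windows (build GRCm38.p6) of 250 bases before to 50 after a listed transcript start. A shared site fell in 2 of these 44 windows, those of Abcb9 and Abcf2, and in 5.03% of the 21263 windows of all protein-coding genes. Both windows are printed because they are the ones at hand for members that held a shared site. Abcb9 transports peptides into lysosomes, and Abcf2 belongs to the subfamily without a membrane-spanning part. Capitals mark the stretch from the summit of one replicate to that of the other, read 5′ to 3′ along the gene. The Abcb9 window is on the minus strand at chr5:124095749-124096048, with the replicate 1 summit at base 158 and the replicate 2 summit at base 116 of the window. The Abcf2 window is on the minus strand at chr5:24577418-24577717, with the summits at bases 124 and 112.
Abcb9: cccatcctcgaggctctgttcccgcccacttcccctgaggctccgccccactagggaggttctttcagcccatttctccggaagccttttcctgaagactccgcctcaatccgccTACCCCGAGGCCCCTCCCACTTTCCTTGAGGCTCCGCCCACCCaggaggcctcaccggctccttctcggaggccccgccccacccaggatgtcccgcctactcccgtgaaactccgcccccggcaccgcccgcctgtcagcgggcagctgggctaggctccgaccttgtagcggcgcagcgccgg
Abcf2: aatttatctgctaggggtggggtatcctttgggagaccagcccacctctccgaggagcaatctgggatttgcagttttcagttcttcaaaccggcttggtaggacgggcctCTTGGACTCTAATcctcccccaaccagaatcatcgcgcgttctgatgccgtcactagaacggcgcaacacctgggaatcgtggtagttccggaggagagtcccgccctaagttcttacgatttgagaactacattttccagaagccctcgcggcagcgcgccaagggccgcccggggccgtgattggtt
The Abcb9 window is 68.7% G and C and that of Abcf2 56.3%, beside a median of 56.3% over all windows. Neither holds a match, on either strand, to the HNF4 letters CAAAGNNCA (which include the narrower CAAAGTCCA), a direct repeat of AGGNCA spaced by 1 base, the forkhead letters TGTTTAC or the AP-1 letters TGANTCA. No match says only that these letters are not in the window.

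The HNF4 letters did occur in the windows of 3 other members, none of which had a shared site in the window. They are shown as the contrast to the promoters above, as stretches of 61 bases with the match in capitals. The Abcb1a stretch is on the plus strand at chr5:8566886-8566946, that of Abcd3 on the minus strand at chr3:121815255-121815315, and that of Abcg5 on the minus strand at chr17:84683182-84683242. In Abcg5 the match runs on the opposite strand.
Abcb1a: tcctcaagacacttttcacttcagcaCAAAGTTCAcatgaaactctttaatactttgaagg
Abcd3: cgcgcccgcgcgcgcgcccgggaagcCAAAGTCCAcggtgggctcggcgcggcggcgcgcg
Abcg5: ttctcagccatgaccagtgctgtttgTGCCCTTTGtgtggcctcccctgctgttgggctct
Only the Abcd3 match has the narrower letters CAAAGTCCA, and it starts at base 14 after the transcript start, while the matches of Abcb1a and Abcg5 start 179 and 205 bases before it. The nearest shared site lay 67544 bp from the start of Abcb1a, 59537 bp from that of Abcd3 and 172542 bp from that of Abcg5. The Abcd3 window did hold a summit of replicate 2 alone, at 121815335 on chromosome 3, 33 bp beyond the gene end. The nearest summit of replicate 1 stood 6678 bp from that summit, so it did not count as shared. CAAAGNNCA occurred in 3 of 44 windows of members (6.82%), in 5.75% of the windows of all protein-coding genes and in 4.67% of the 1070 windows that held a shared site. The Abcb1a window also held the forkhead letters (1 of 44 windows of members, 3.01% of all windows), and no window of a member held the direct repeat or the AP-1 letters, which 0.353% and 6.99% of all windows did.

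The share of ABC genes with a shared site inside was above that of all genes, and the share with one within 10 kb of an end was not. Of the 49 genes, 14 had a shared site inside (28.6%, 95% exact binomial interval 16.6 to 43.3), while 13.7% of all protein-coding genes did. Within 10 kb of a gene end, 9 of the 49 had one (18.4%, 8.76 to 32.0), close to the 20.6% of all protein-coding genes. Within 50 kb of an end, 28 had one (57.1%, 42.2 to 71.2), against 46.8% of all protein-coding genes. The same 28 members result when sites deeper inside are added, against 47.9%. Both windows run to either side of an end, so sites inside the gene can count there too. In all, 5 members counted both as inside and as within 10 kb. Of these, Abca3, Abcb4, Abcb9 and Abcb10 were within 10 kb only through sites inside the gene. The intervals cover counting error only, and neighbouring genes can share a site. Together the 28 genes hold 50 distinct sites, 27 of them inside a member.

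ABC genes are long, with a median of 64.1 kb (8.75 to 492.9 kb) beside 17.2 kb for all protein-coding genes, and a long gene can hold more sites. None of 14 members under 30 kb had a shared site inside, against 6.13% of all genes of that length. Between 30 and 100 kb, 6 of 23 members did (26.1%), against 20.4%, and at 100 kb and over, 8 of 12 (66.7%), against 44.3%. Inside or within 50 kb, the share of all genes also rose with length. It was 43.5% under 30 kb, 53.8% between 30 and 100 kb and 61.4% at 100 kb and over. Members stood at 50.0%, 47.8% and 83.3%. Per Mb of gene, members held 7.08 shared sites and all protein-coding genes 4.16. Without Abcc4, the member with most sites, the density was 5.57 per Mb. In the 50 kb flanks the order was the other way, at 5.51 per Mb for members (5.21 without Abcc4) and 6.24 for all genes. A site counts there once for every gene in reach, so the flank values also depend on how closely genes lie together.

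**Figure D1:**
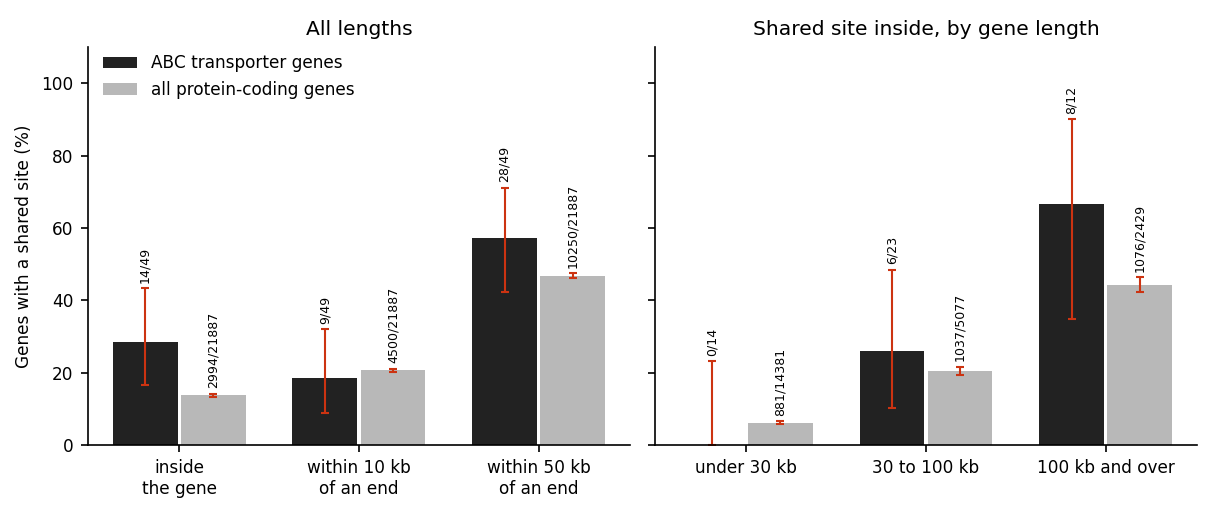
Share of genes with a shared Hnf4a site (%), for the 49 ABC transporter genes (black) and all protein-coding genes (grey), by place of the site (left) and, for sites inside the gene, by gene length (right). Red bars are 95% exact binomial intervals and the numbers above them are genes with a site over genes counted. Members lie at 28.6% inside and 18.4% within 10 kb of an end, beside 13.7% and 20.6% of all genes. The places overlap, since a site inside the gene can lie near an end.

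A site within 50 kb of a member can lie nearer to another gene. Of the 50 distinct sites, 33 had a member as the nearest protein-coding gene and 17 did not. When each site is counted only for its nearest gene, 17 of the 49 members have one, beside 23.6% of all protein-coding genes counted that way. This setting was added after the values were seen.

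By subfamily, the shares with a shared site inside or within 50 kb were highest for Abcb (88.9%) and Abcc (80.0%), beside 47.9% of all protein-coding genes, and 13.7% of all genes had one inside. Of 9 Abcb genes, 8 had one inside or within 50 kb and 5 had one inside, and of 10 Abcc genes 8 and 3 did. For Abcb6, Abcb8, Abcc6, Abcc9, Abcc10 and Abcc12, every site so counted lies nearer to another protein-coding gene. The Abca genes followed with 8 of 16 and 5 of 16, then Abcd with 2 of 4 and 0 of 4, Abcf with 1 of 3 and 0 of 3, Abcg with 1 of 6 and 1 of 6, and the only Abce gene with none. Inside the genes, the density was 14.1 shared sites per Mb in Abcb, 11.3 in Abcc, 7.13 in Abcg and 3.33 in Abca, beside 4.16 in all protein-coding genes. Without Abcc4, Abcc genes had 4.53 per Mb, near that background. The Abcg value rests on sites in Abcg2 alone, and the Abcd, Abce and Abcf genes held none inside. The subfamilies are small and neighbouring genes can share a site, so overlapping intervals cannot decide whether the subfamilies differ. The 95% exact intervals of the shares inside or within 50 kb were 51.8 to 99.7% for Abcb and 44.4 to 97.5% for Abcc. For Abca and Abcg they were 24.7 to 75.3% and 0.421 to 64.1%, and all of them overlap. The plot of summits by gene shows that Abcc4 alone holds 9 of the Abcc sites.

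**Figure D2:**
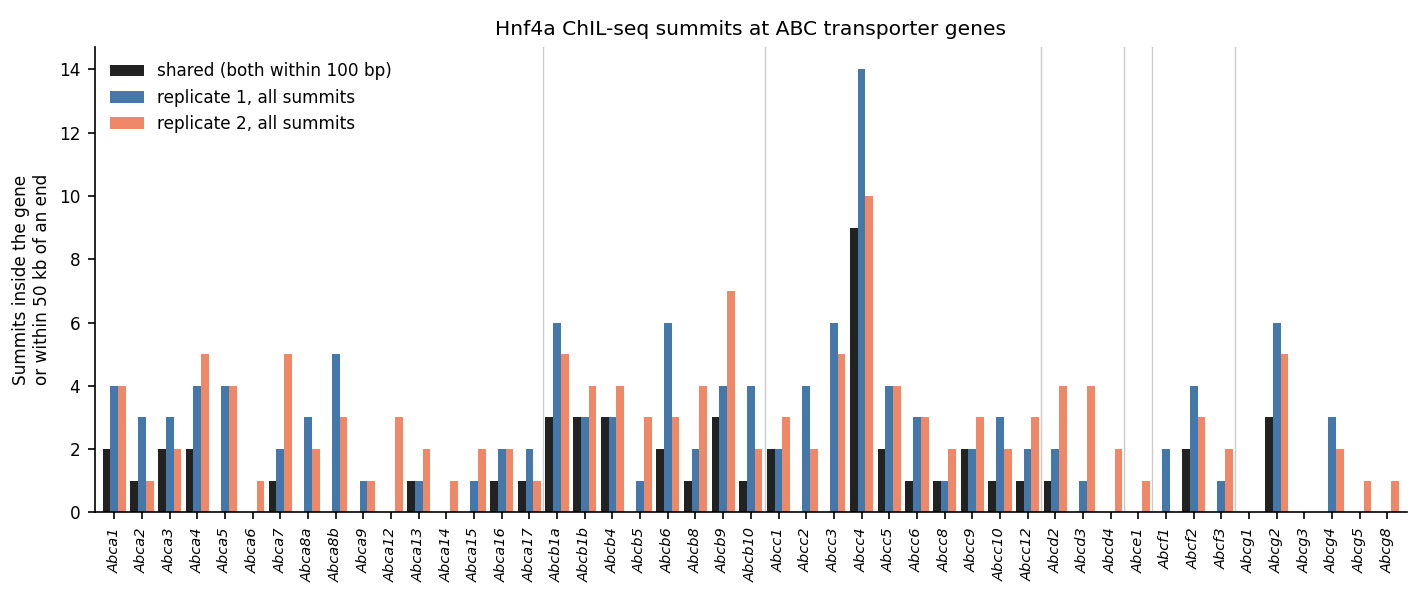
Number of Hnf4a summits inside each of 47 ABC genes or within 50 kb of an end, as shared sites (black) and as all summits of replicate 1 (blue) and replicate 2 (orange); grey lines part the subfamilies. Abcc4 stands highest with 9 shared sites, 14 summits in replicate 1 and 10 in replicate 2, and Abcg1 and Abcg3 have no summit in either.

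The canalicular list held 7 pumps, of which 4 had a shared site inside or within 50 kb, and the basolateral list held 6, of which 5 did, beside 47.9% of all protein-coding genes. The canalicular share of 57.1% is near that background. The pumps are long, with median lengths of 65.6 kb (canalicular) and 104.3 kb (basolateral), and the background rises with length. It was 53.8% for all genes of 30 to 100 kb and 61.4% for those of 100 kb and over. Both lists share no site, and they held 9 and 16 distinct sites, of which 7 and 10 lay inside a pump. Per Mb of gene there were 13.3 shared sites in canalicular pumps and 14.9 in basolateral pumps, against 4.16 in all protein-coding genes, and without Abcc4, which holds 7 of the 10 inside sites, basolateral pumps had 6.76. Median scores were 8.99 in replicate 1 and 11.9 in replicate 2 for canalicular sites, and 11.7 and 12.9 for basolateral sites. The exact intervals of the shares, 18.4 to 90.1% and 35.9 to 99.6%, overlap over most of their length. With 7 and 6 genes, and with Abcb1b and Abcb4 counted through the same sites, the intervals cannot decide whether the lists differ. Without Abcc4, 7 basolateral sites remained, with medians of 9.28 and 15.1.

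**Figure D3:**
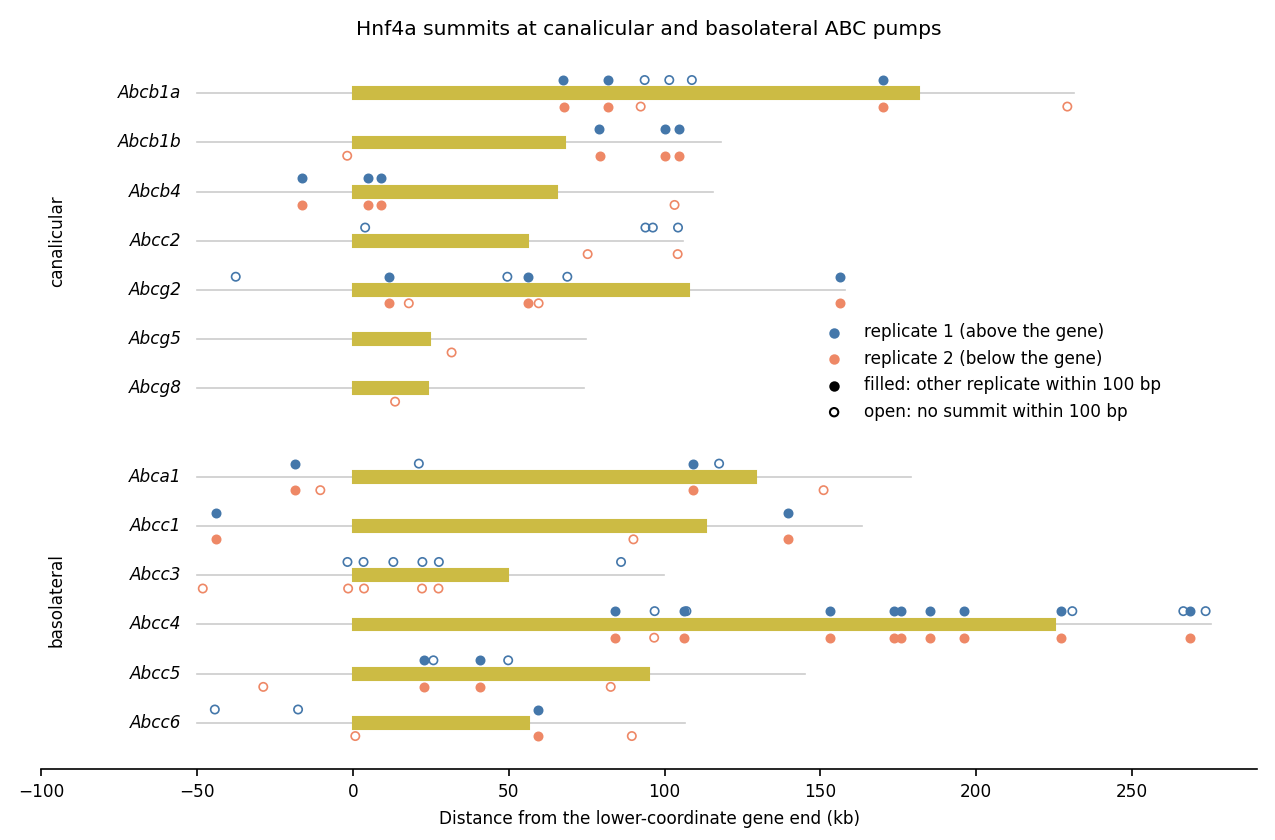
Hnf4a summits at the 7 canalicular and 6 basolateral pumps, in kb from the lower-coordinate gene end; yellow bars are the genes and grey lines the 50 kb flanks. Replicate 1 is above each gene and replicate 2 below, filled where the other replicate has a summit within 100 bp. Abcc3 has summits of both replicates almost in register but no filled point, and Abcg5 and Abcg8 show only 1 open point, from replicate 2.

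Among canalicular pumps, Abcg2 had the highest score in each replicate. Abcg2 exports drugs and urate, lies on the plus strand at chr6:58584491-58692451 and has 3 listed transcript starts. Its site at chr6:58596117-58596131 scored 22.4 in replicate 1 and 29.3 in replicate 2, and lies inside the gene, 548 bp upstream of a listed inner start. A second site at chr6:58640718-58640778 scored 8.99 and 13.8 and lies 202 bp downstream of another listed start. Both sites are thus placed at alternative starts, not at the outer end of the gene. The last, at chr6:58740768-58740842, scored 24.6 and 13.6 and lies 48354 bp beyond the gene.

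Abcb1a and Abcb1b encode the mouse P-glycoproteins, which expel many drugs, and Abcb4, their neighbour on chromosome 5, moves phosphatidylcholine into bile. Abcb1a (chr5:8567091-8748575) held 3 shared sites, all inside, with scores of 21.4 and 20.6 at chr5:8737185-8737219, 10.5 and 8.38 at chr5:8634593-8634678, and 7.35 and 7.69 at chr5:8648966-8649011. The best of them lies 170111 bp downstream of the listed start, towards the far end of the gene. Abcb1b (chr5:8798147-8866314) had no shared site inside or within 10 kb, and its 3 sites within 50 kb are the same 3 as those of Abcb4. Of these, those at chr5:8898325-8898378 (6.28 in replicate 1 and 11.9 in replicate 2) and chr5:8902672-8902724 (7.01 and 6.14) lie inside Abcb4 (chr5:8893614-8959226), 4630 and 8977 bp downstream of its listed start. The remaining one, at chr5:8877206-8877290 (7.03 and 4.93), lies between both genes. All 3 scored below the median of shared sites in replicate 1. In replicate 2 the site at chr5:8898325-8898378 scored above that replicate's median of 9.61, and the others below it.

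Abcc2, the canalicular exporter of bilirubin glucuronides, had no shared site. On chromosome 19 it had 4 summits in replicate 1 and 2 in replicate 2, of which only the replicate 1 summit at 43786222 (5.14) lay inside the gene. The closest pair, at 43886492 in replicate 2 (4.22) and 43886608 in replicate 1 (5.89), stood 116 bp apart and 48 kb from the gene, just beyond the 100 bp limit. Abcg5 and Abcg8, which form the heterodimer that exports sterols into bile, are neighbours on chromosome 17. Both have in reach the same single summit, at 84689825 in replicate 2 (5.29), and none in replicate 1. The next summit of replicate 1 was 104467 bp away.

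Among basolateral pumps, Abcc4 stood apart by number. Abcc4 exports cyclic nucleotides and, together with glutathione, bile acids, and lies on the minus strand at chr14:118482692-118707856. It held 7 shared sites inside and 2 more within 50 kb, and 7 or more inside were found in 23 of all 21887 genes. Of 840 genes at least as long as Abcc4, 21 reached 7, with a mean of 1.24 and a median of 1. The site at chr14:118678697-118678733 had the highest scores of all 50 sites of the family, 45.5 in replicate 1 and 47.4 in replicate 2, and lies 1784 bp upstream of a listed inner start. A site at chr14:118709809-118709810, 1953 bp beyond the outer end of the gene, scored 20.2 and 16.3. The site at chr14:118566656-118566682 scored 19.5 and 18.9, and that at chr14:118667880-118667886 scored 17.3 and 8.64.

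The other Abcc4 sites scored at most 12.0 in replicate 1 and 12.8 in replicate 2. The sites at chr14:118635645-118635658 and chr14:118656214-118656252 scored 12.0 and 11.5 in replicate 1 and 7.34 and 9.91 in replicate 2. Those at chr14:118658636-118658690 and chr14:118589069-118589070 scored 7.02 and 4.23 in replicate 1 and 12.8 and 10.7 in replicate 2. The last, at chr14:118751355-118751405 (5.27 and 8.22), lies nearer to Cldn10. A further pair inside the gene, at 118579487 in replicate 1 (5.96) and 118579343 in replicate 2 (17.3), stood 144 bp apart and did not count as shared. Whether the sites lie in exons or introns is not told by the gene table used.

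**Figure D4:**
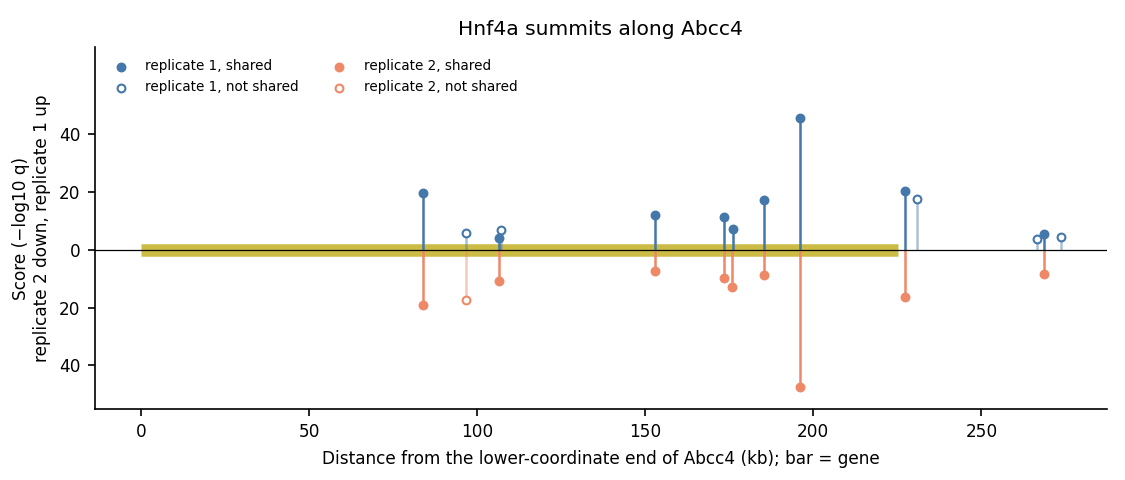
Scores (−log10 q) of all Hnf4a summits at Abcc4 by distance in kb from its lower-coordinate end, with replicate 1 upward and replicate 2 downward; the yellow bar is the gene and open points are summits without a counterpart within 100 bp. The tallest pair, 45.5 and 47.4, stands inside the gene, and 9 pairs are shared.

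Abcc3, which returns glucuronides to the blood, is the basolateral pump without a shared site, although it had 6 summits in replicate 1 and 5 in replicate 2. They formed 4 pairs, 1 summit from each replicate, 115 to 211 bp apart. On chromosome 11, the pair at 94365576 in replicate 1 (8.66) and 94365461 in replicate 2 (6.03) was 115 bp apart, and the pair at 94370863 (8.50) and 94370737 (6.70) was 126 bp apart. The absence of a shared site at Abcc3 thus rests on the 100 bp limit: at 200 bp all 6 basolateral pumps had one.

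Abca1, which loads cholesterol onto apolipoprotein A-I, had a shared site inside at chr4:53139794-53139841 (5.77 in replicate 1 and 7.44 in replicate 2). A higher-scored one at chr4:53012160-53012179 (15.6 and 17.4) lies 18620 bp from the gene, inside Nipsnap3b. Abcc5, an exporter of cyclic nucleotides, had both its sites inside, at chr16:20372075-20372082 (18.9 and 17.9) and chr16:20354157-20354176 (8.43 and 6.16). Abcc6, which drives the release of ATP from the liver and is linked to ectopic mineralisation, had 1 site at chr7:46033517-46033518 (15.0 and 15.1), 3026 bp beyond its end and nearer to Nomo1. Abcc1, an exporter of glutathione conjugates, had sites only 26225 bp (7.32 and 15.3) and 44042 bp (9.28 and 13.0) from the gene. The farther of these lies nearer to another gene.

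Of 9 members that work in organelles, 7 had a shared site inside or within 50 kb and 3 had one inside, beside 47.9% and 13.7% of all protein-coding genes. The promoter site of Abcb9 shown above, at chr5:124095891-124095933, had scores of 26.7 in replicate 1 and 21.5 in replicate 2 and lies 114 bp upstream of the listed start. Abcb9 had a second, weak site inside (4.95 and 3.77) and another 14661 bp beyond the gene (6.18 and 11.6). Abcb10, a transporter of the inner mitochondrial membrane with a part in haem synthesis, had a site at chr8:123983018-123983020 (8.53 and 9.04), 103 bp downstream of its listed start. The summits of both replicates there were 2 bp apart.

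Abcb6, a porphyrin transporter, had a site 2721 bp from its end (8.90 in replicate 1 and 8.00 in replicate 2), inside Zfand2b. Mitochondrial Abcb8 had one at 10956 bp (13.5 and 13.2), also nearer to another gene. Abcd2, a peroxisomal fatty acid transporter, had one at 30621 bp (7.65 and 16.7), which lies nearer to another gene.

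Close to transcript starts, the share of ABC genes with a site was near that of all genes. Of the 37 members with a listed start, 4 had a shared site within 1 kb of one (10.8%), beside 8.83% of all protein-coding genes with listed starts: Abcb9, Abcb10, Abcf2 and Abcg2. The promoter site of Abcf2 at chr5:24577594-24577606 scored 9.53 in replicate 1 and 7.87 in replicate 2, 133 bp upstream of the start, and a second site 9193 bp away (12.1 and 5.97) lies nearer to Chpf2. Of the 4 members that transport nothing, Abcf2 was the one with a shared site, and Abce1, Abcf1 and Abcf3 had none.

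The highest-scored site of an Abca gene was inside Abca16, at chr7:120459383-120459443, with 34.8 in replicate 1 and 30.5 in replicate 2, 49766 bp downstream of the listed start. Abca4, a retinoid flippase of photoreceptors, held sites inside with 15.3 and 10.8 at chr3:122122191-122122235 and 10.2 and 9.36 at chr3:122130715-122130759. Abca3, which loads surfactant lipid in the lung, and its neighbour Abca17 share a weak site at chr17:24360297-24360365 (4.45 and 4.44), which lies inside Abca3. Abca13, the longest member, had 1 site in 492.9 kb (4.71 and 10.1). Abcc8, the sulfonylurea receptor of pancreatic beta cells, had a site inside (9.08 and 6.13), and the related Abcc9 had sites 39381 bp (17.1 and 12.9) and 44004 bp (7.16 and 11.9) away, both nearer to Kcnj8.

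Another 10 members had shared sites only between 10 and 50 kb, among them Abca2, Abca7, Abcb1b, Abcb8, Abcc1, Abcc9, Abcc10, Abcc12 and Abcd2. The neighbouring genes Abca5, Abca6, Abca8a, Abca8b and Abca9 on chromosome 11 had no shared site in reach of any of the 5. For Abca5, Abca8a and Abca8b this too rests on the 100 bp limit. Summits of both replicates stood 120 bp apart at Abca5 (12.9 in replicate 1 and 10.5 in replicate 2) and 152 and 179 bp apart at Abca8b. The closer pair at Abca8b was also in reach of Abca8a. Abca6 had a summit of replicate 2 only, and at Abca9 the summits of both replicates stood 31832 bp apart. With sharing up to 200 bp, 34 members had a shared site inside or within 50 kb, beside 52.8% of all protein-coding genes. Altogether, at 100 bp, 21 members had none inside or within 50 kb, of which 11 had summits of both replicates, 1 of replicate 1 only and 7 of replicate 2 only. Abcg1, which passes cholesterol to high-density lipoprotein, and Abcg3 had no summit in either replicate.

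Replicate 2 had summits at more ABC genes than replicate 1. Inside members, replicate 1 had summits in 22 of 49 (44.9%) and replicate 2 in 32 (65.3%), beside 26.3% and 28.4% of all protein-coding genes. Within 10 kb of an end the counts were 19 (38.8%) and 29 (59.2%), beside 39.4% and 41.9%. Within 50 kb they were 40 (81.6%) and 46 (93.9%), beside 69.3% and 72.4%, and the same members had a summit inside or within 50 kb, beside 70.2% and 73.4%. Thus at gene ends replicate 1 was near the background and replicate 2 above it. For both of the first places 2 members had summits in replicate 1 only and 12 in replicate 2 only, while over all genes 1553 and 2011 did so inside and 2144 and 2697 within 10 kb. No test of this difference was run, and its cause was not tested.

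Over the 50 shared sites, scores ran from 4.23 to 45.5 in replicate 1 and from 3.77 to 47.4 in replicate 2. Their medians were 9.18 and 11.2, beside 9.93 and 9.61 for all shared sites. Both summits were in the top 10% of their list at 8 of 50 sites (16.0%), beside 13.4% of all shared sites. The score was higher in replicate 2 at 22 of the 50 sites and lower at 28, while it was higher at 47.3% of all shared sites. The summits lay 1 to 91 bp apart, with a median of 31 bp beside 32 bp for all shared sites. Of 118 distinct summits of replicate 1 at members, 42.4% were shared, and of 127 of replicate 2, 39.4%, beside 43.2% and 38.2% of all summits. Unshared summits at members scored lower, with medians of 5.75 and 5.63.

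**Figure D5:**
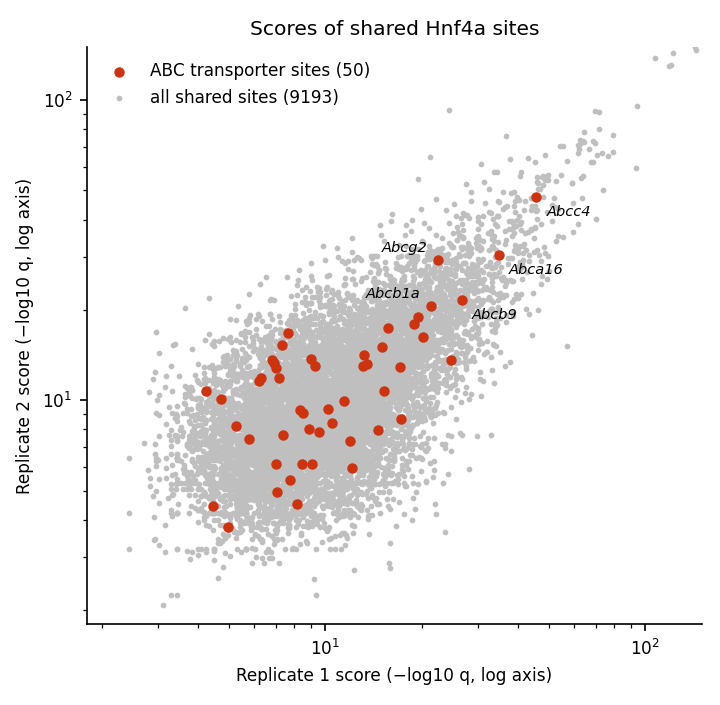
Scores of shared Hnf4a sites in replicate 1 and replicate 2 (−log10 q, both axes logarithmic), with the 50 sites of ABC transporter genes in red and all 9193 shared sites in grey; 10 sites lie beyond the axes at 150. The red points spread over the grey ones, with the Abcc4 site at 45.5 and 47.4 the highest.

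Genes that work with the pumps were taken from a list of 25 regulators and partners. Within 10 kb of an end, 9 of 49 ABC genes (18.4%) had a shared site, against 12 of the 25 listed genes (48%) and 20.6% of all protein-coding genes, and the difference was not tested. For the membrane partners, the best such site scored 12.7 in replicate 1 and 16.7 in replicate 2 at Atp8b1, a canalicular phospholipid flippase, and 9.54 and 5.88 at Tmem30a, the flippases' shared subunit, 125 bp from the gene. It scored 20.3 and 17.2 at Myo5b, a motor that carries vesicles to the canaliculus, 11.9 and 9.26 at Vps33b, which acts in the same traffic, 11.4 and 4.14 at the scaffold gene Slc9a3r1, and 4.60 and 6.81 at Rdx, a linker of canalicular proteins to actin. For the regulators, it scored 6.73 and 16.9 at Nfe2l2, a transcription factor of the oxidative stress response, and 6.43 and 8.93 at the sterol receptor gene Nr1h2. The nuclear receptor genes Nr1h4, Nr1i2 and Nr1i3 were also among the 12. The list was drawn up with earlier results for some of these genes known, so its share is not independent evidence.

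Of the ABC family members with other symbols, Tap2, which carries peptides for antigen presentation, had a shared site 106 bp from its end (11.0 in replicate 1 and 10.6 in replicate 2). The same site lies 7148 bp from Tap1, which encodes the other chain of that transporter. Cftr, a chloride channel, had 1 shared site within 50 kb and none within 10 kb. A shared site lay inside 14 of 49 ABC genes (28.6%), against 10 of 39 uptake transporters of the Slco and Slc22 families (25.6%). Within 10 kb of an end it was 9 of 49 (18.4%), against 9 of 39 (23.1%), and these differences were not tested.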

How the data were processed

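Per the submitters' processing notes, reads were handled with fastp 0.23.4, HISAT2 2.0.5 and MACS2 2.2.9.1 on build mm10. The authors deposited, per library, 1-bp summits with a −log10 q-value. Per the deposited peak names, the q-value threshold was 0.01. A control library, duplicate removal and a region filter are not given in the sources used here. Read depth is unknown, and the lists were not rescaled. Neighbouring summits up to 100 bp apart were joined, and a joined region with both replicates is a shared site, placed at its midpoint. Distances run to the nearer gene end, from inside or outside the gene, in RefSeq's table of genes (GRCm38.p6, which mm10 corresponds to). Transcript starts and strands come from RefSeq's promoter table. There is 1 group, so no test between conditions was possible, and no p-value was computed, since genes are not replicates. Members are read against all protein-coding genes. The alternatives covered sharing distance, score, each replicate alone, windows and assignment of sites. Members, lists and rules were chosen with earlier results of these data known. Named are members with a shared site inside or within 50 kb, all canalicular and basolateral pumps, and listed partners with a site within 10 kb, except a few genes that are counted but not reported here by name; the other genes named were chosen after their values were seen. The counting was tested on simulated data. Python 3.11.15, numpy 2.4.6, pandas 2.3.3 and scipy 1.17.1 were used.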

Additional observations from a re-analysis of the deposited data

How the results depend on the processing

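Of 48 alternative counts, 37 stayed within 1.5 times the value reported. Some of them could hardly move, so the tally does not measure stability. Giving each site to its nearest member keeps 50 distinct sites by construction, and 5 of 6 basolateral pumps cannot rise 1.5-fold. Taking one replicate alone gave 22 to 32 members with a summit inside, 19 to 29 within 10 kb of an end, 40 to 46 inside or within 50 kb, 118 to 127 distinct sites, 5 to 7 canalicular pumps and 6 to 6 basolateral pumps, counts that include unshared summits by construction. A sharing distance of 50 bp left 2 canalicular pumps, Abcb1a and Abcg2, since the sites at Abcb1b and Abcb4 have summits 52 to 84 bp apart, and kept 5 basolateral pumps. At 200 bp there were 5 and 6. A window of 20 kb in place of 10 kb took in 19 members, beside 29.7% of all protein-coding genes. Counting each site only for its nearest protein-coding gene left 17 members, 4 canalicular and 4 basolateral pumps. With a score of 5 or more in both replicates, 12 members had a shared site inside (12.2% of all genes) and 7 within 10 kb (18.2%). No paired analysis was possible because there is 1 group. Unknown depth and the absence of analysed control libraries limit how a missing summit can be read.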
